A study of Mus musculus with 4 samples.

Results

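The 8 genes described here lie along 1 route, from the import of cystine to the removal of peroxides with glutathione. They are Slc7a11, Gclc, Gclm, Gss, Gsr, Ggt5, Gpx1 and Gpx4. They were picked by name out of the 34745 genes of the deposited count table, and they were chosen on earlier results of the comparison between DI and vehicle in these same libraries. The differences given for them are therefore a description of that comparison. Each name had 1 row in the table. All 8 genes held enough counts to be tested, Ggt5 only through the libraries with DI.

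Bone marrow derived macrophages (BMMs) were grown from wild-type male C57BL/6 mice at 8 weeks of age, kept for 12 h without serum, and then given RANKL at 100 ng/mL for 24 h. RANKL is the cytokine that drives macrophages towards bone-resorbing osteoclasts, and every library received it. The RANKL+DI group (2 libraries) also received dimethyl itaconate (DI), an ester of the macrophage metabolite itaconate that can enter cells, while the RANKL+Veh group (2 libraries) received the solvent DMSO. The sample labels give the dose of DI as 20 mM and the methods of the study as 20 μM. The study states its other doses of DI in culture in μM too, but the dose given to these libraries could not be settled here. Cells without RANKL were not analysed here. The labels do not say whether the libraries of a group came from separate mice or cultures, so the p-values below measure only the spread between these libraries, which may be technical.

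The libraries held 16085692 to 19403480 counts. Levels are given as CPM, the counts per 1e6 counts of the TMM-scaled library, on which 3 counts, taken as the floor, are 0.160 to 0.180 CPM. All 10 macrophage markers had counts, and their summed level was 22810 to 23690 CPM with vehicle and 29010 to 29820 CPM with DI, mostly from Lyz2. Of these 10 genes, 5 were higher and 2 lower with DI at an adjusted p under 0.05 in edgeR's quasi-likelihood test. Among all 12590 tested genes the share at this threshold was 14.8%, with 7.14% higher and 7.7% lower. Of 10 osteoclast markers, 9 had counts and Calcr had 0 in every library. Among those 9 genes 6 were lower and 2 higher with DI, with a summed level of 878.6 to 903.9 CPM with vehicle and 826.8 to 836.0 CPM with DI. The largest part of this sum was Atp6v0d2, 1 of the 2 higher genes. It was at 427.0 and 417.7 CPM with vehicle and 508.9 and 509.4 CPM with DI. Log2 fold changes of the 6 lower genes ran from -0.35 (Tnfrsf11a) to -2.52 (Ocstamp). In RNA from whole cultures, fewer cells of a type and less RNA per cell cannot be told apart. Markers of other cells had lower summed levels, the highest of them for stromal cells, with Col1a1 at 18.5 to 22.3 CPM. Summed levels were 0.240 to 0.699 CPM for T and NK cells (4 of 6 genes at 0 counts, Cd3e among them), 2.88 to 4.35 CPM for neutrophils (Ly6g at 0), at most 0.0583 CPM for erythroid cells (all haemoglobin genes at 0) and 51.2 to 59.0 CPM for stromal cells. The B cell list rose from 10.7 and 11.8 CPM to 21.3 and 23.5 CPM through Ighm alone, with Pax5 at 0 counts. The part of these shifts in the differences below was not tested.

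Glutathione is a tripeptide of glutamate, cysteine and glycine, and the supply of cysteine commonly limits how much of it a cell can make. Cystine, the oxidised form of cysteine, is taken up in exchange for glutamate by a transporter whose working chain is encoded by Slc7a11. Glutamate-cysteine ligase, made of a catalytic subunit (Gclc) and a modifier subunit (Gclm), and then glutathione synthetase (Gss) build the tripeptide. Glutathione peroxidases spend it on peroxides, glutathione reductase (Gsr) recovers the oxidised form with NADPH, and gamma-glutamyltransferases such as Ggt5 break it down outside the cell. Several of these genes are textbook targets of NRF2, a transcription factor that is released when electrophiles modify its inhibitor KEAP1. NRF2 binds antioxidant response elements with the core TGACNNNGC, and Slc7a11 is also a known target of ATF4, which binds sites of the form TGATGNAA.

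Sequences before the start sites are shown as a description, and nothing is read from them about the differences with DI. RefSeq gives start site windows of build GRCm38.p6 for 5 of the 8 genes, Slc7a11, Gclm, Gss, Gpx1 and Gpx4, the last with 4 windows. TGACNNNGC, a variant of it (TGATNNNGC) and TGATGNAA were searched on both strands from 250 bases before to 50 bases after each start. Below are the 250 bases before the start of 3 genes, on the strand of the gene, with matches in capitals. The bases shown for Slc7a11 lie at chr3:50443614-50443863 (minus strand), those for Gclm at chr3:122245307-122245556 (plus strand) and those for Gss at chr2:155592811-155593060 (minus strand).
Slc7a11: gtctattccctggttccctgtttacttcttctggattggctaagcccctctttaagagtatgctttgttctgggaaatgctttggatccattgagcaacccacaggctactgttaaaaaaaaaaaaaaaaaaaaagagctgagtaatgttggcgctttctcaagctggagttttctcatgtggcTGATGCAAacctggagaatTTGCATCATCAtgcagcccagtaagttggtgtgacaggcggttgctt
Gclm: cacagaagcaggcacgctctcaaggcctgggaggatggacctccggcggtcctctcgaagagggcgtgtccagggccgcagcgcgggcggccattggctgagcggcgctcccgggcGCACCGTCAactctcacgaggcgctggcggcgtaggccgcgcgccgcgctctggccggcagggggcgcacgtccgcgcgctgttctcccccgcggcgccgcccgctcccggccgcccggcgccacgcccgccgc
Gss: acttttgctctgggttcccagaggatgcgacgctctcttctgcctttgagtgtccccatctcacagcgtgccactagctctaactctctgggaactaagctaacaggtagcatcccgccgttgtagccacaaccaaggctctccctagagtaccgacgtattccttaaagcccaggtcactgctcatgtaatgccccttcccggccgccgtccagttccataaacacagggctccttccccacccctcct

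Slc7a11 held TGATGNAA at 2 places, as TGATGCAA at -66 to -59 and as TTGCATCA, the same motif on the other strand, at -47 to -40 (counted back from the first transcribed base). The latter overlaps a match to TGATNNNGC at -45 to -37, and another match to that motif lies after the start, at 41 to 49. Gclm held 1 match to TGACNNNGC, at -134 to -126 on the opposite strand. The windows of Gss and Gpx1 and the 4 windows of Gpx4 held no match to the 3 motifs. Of all 32851 windows, 12.4% held TGACNNNGC, 8.09% TGATNNNGC and 3.97% TGATGNAA. A match is a description of the letters in the window and was not tested for binding.

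DI came with more message for cystine import (Slc7a11, 2.38-fold), for glutathione synthesis (Gclm, 2.45-fold, Gclc, 2.11-fold, and Gss, 1.98-fold) and, to a smaller extent, for Gsr and Gpx4. In edgeR's quasi-likelihood test 7 of the 8 genes were called, at an adjusted p below 0.05, and all 7 were higher. Gpx1 was the exception, and Ggt5 had entered the test only through its DI libraries. Over all 12590 tested genes 14.8% passed this threshold, 7.14% higher and 7.7% lower. Since the members were chosen on this comparison, nothing is read from their count against these shares. The same holds for the median log2 fold change, which was 1.03 for the 8 genes and 0.0012 for all tested genes. For the same 7 genes both DI libraries lay above both vehicle libraries, as they did for 29% of all tested genes. The split over all genes depends on the scaling, with 899 higher and 969 lower after TMM scaling but 548 higher and 1932 lower when only library size was used, where the median of all genes stood at -0.10. The fitted values of the 7 genes were above 0 under both.

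**Figure D1:**
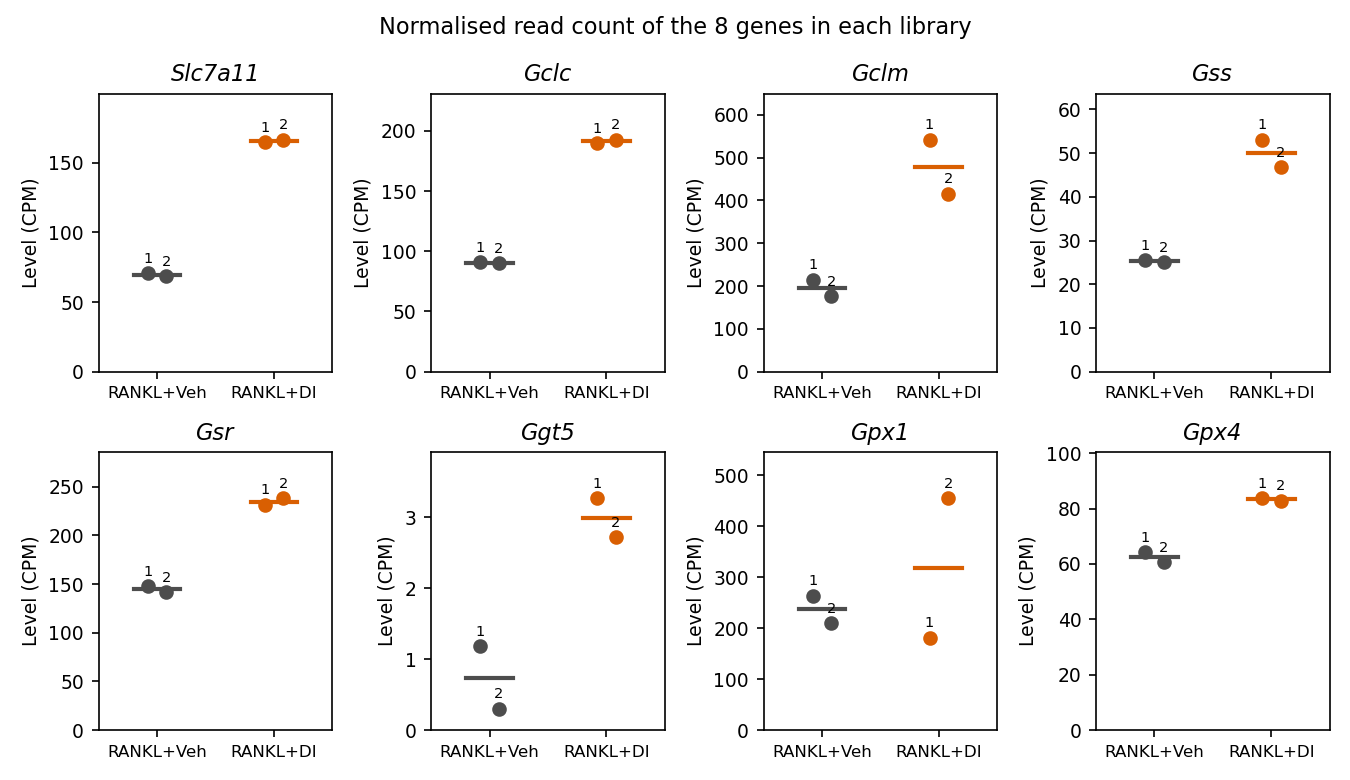
Each panel plots the normalised read count of 1 gene (CPM, linear axis from 0) in the 2 RANKL+Veh libraries (grey) and the 2 RANKL+DI libraries (orange). Points are libraries marked with their replicate number and lines are group means. The groups are apart for every gene but Gpx1, whose DI libraries lie on either side of the vehicle libraries, at 182 and 454 CPM.

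Slc7a11 (ENSMUSG00000027737, chromosome 3 from 49892526 to 50443614), the cystine importer, was at 70.9 and 68.4 CPM with vehicle and at 165 and 166 CPM with DI. The libraries of each group lay close together, with means of 69.7 ± 1.71 CPM for vehicle and 166 ± 1.24 CPM for DI (SD, n = 2). Its log2 fold change was 1.25 (standard error 0.046), a 2.38-fold difference. The lowest ratio of a DI library to a vehicle library was 2.32 and the highest 2.43. Part of a Slc7a11 transcript resembles tubulin genes such as Tuba1b, with 92.5% identity over 585 bases. Counts of Tuba1b itself were 11389 and 12343 in the DI libraries and 15375 and 13856 in the vehicle libraries. A stretch of 400 bases in a Slc7a11 transcript also resembles Lpl. Counts of Lpl were 126580 and 138063 in the DI libraries and 110796 and 97912 in the vehicle libraries. The part of these genes in the counts of Slc7a11 was not tested.

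Of the 3 synthesis genes, Gclc (ENSMUSG00000032350, chromosome 9 from 77754535 to 77794485) had the most even libraries. It encodes the catalytic subunit and was at 91.1 and 90.3 CPM with vehicle and 190.0 and 193 CPM with DI. Every DI library was between 2.09 and 2.13 times every vehicle library, and the log2 fold change was 1.08 (standard error 0.041).

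Gclm (ENSMUSG00000028124, chromosome 3 from 122245557 to 122270732), the modifier subunit, was at 215 and 176 CPM with vehicle and 542 and 416 CPM with DI. Replicate 1 was the higher library in both groups, and the groups stayed apart by a factor of at least 1.93. Its log2 fold change was 1.29 (standard error 0.15). Of its exons 3.88% overlap Gm6061 on the same strand and 4.71% overlap Gm17494 on the opposite strand. Counts of Gm17494 were 60 and 65 in the DI libraries and 19 and 20 in the vehicle libraries. A short Gclm transcript also holds a stretch of 287 bases that resembles Ppia at 97.9% identity. The part of these genes in the counts of Gclm was not tested.

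Gss (ENSMUSG00000027610, chromosome 2 from 155563181 to 155592810) encodes the synthetase that adds glycine. It was at 25.5 and 25.0 CPM with vehicle and at 53.0 and 46.8 CPM with DI, a log2 fold change of 0.98 (standard error 0.083). Both DI libraries were at least 1.83 times the higher vehicle library. Gss shares 6.68% of its exons with Acss2, which lies on the opposite strand, with counts of 462 and 422 in the DI libraries and 180 and 139 in the vehicle libraries. Whether strand was used in counting is not stated, and the part of Acss2 in the counts of Gss was not tested.

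Gsr (ENSMUSG00000031584, chromosome 8 from 33652523 to 33698163), which returns oxidised glutathione to its reduced form, was at 148 and 141 CPM with vehicle and at 231 and 238 CPM with DI. The difference was 1.62-fold, smaller than those of the import and synthesis genes, with a log2 fold change of 0.70 (standard error 0.044). The DI libraries were 1.57 to 1.68 times the vehicle libraries.

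Ggt5 (ENSMUSG00000006344, chromosome 10 from 75589340 to 75617200), a cell surface enzyme that also acts on leukotriene C4, was barely expressed. Its counts were 22 and 5 in the vehicle libraries and 56 and 51 in the DI libraries. It had enough counts to be tested only through the DI libraries, so nothing is read from its being called. Its log2 fold change of 1.97 was the largest of the 8 genes and had the largest standard error, 0.49. The vehicle libraries alone differed from 1.18 to 0.300 CPM. Without vehicle replicate 1 the log2 fold change was 3.28 and without vehicle replicate 2 it was 1.33. The gene no longer passed without DI replicate 1 (1.84), DI replicate 2 (2.10) or vehicle replicate 2, with the replicate number as a block (2.04) or on log2(FPKM + 0.01) (2.09).

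Gpx1 (ENSMUSG00000063856, chromosome 9 from 108338903 to 108340343), the abundant cytosolic glutathione peroxidase, was at 264 and 210 CPM with vehicle. With DI it was at 182 CPM in replicate 1 and 454 CPM in replicate 2, from 3117 and 8520 counts. The groups therefore overlapped, and the log2 fold change of 0.43 had a standard error of 0.39. Without DI replicate 1 it was 0.94 and passed the threshold, while without DI replicate 2 it was -0.38 and did not. The direction for Gpx1 thus rests on which DI library is used, and with 2 libraries it cannot be told which of them stands apart.

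**Figure D2:**
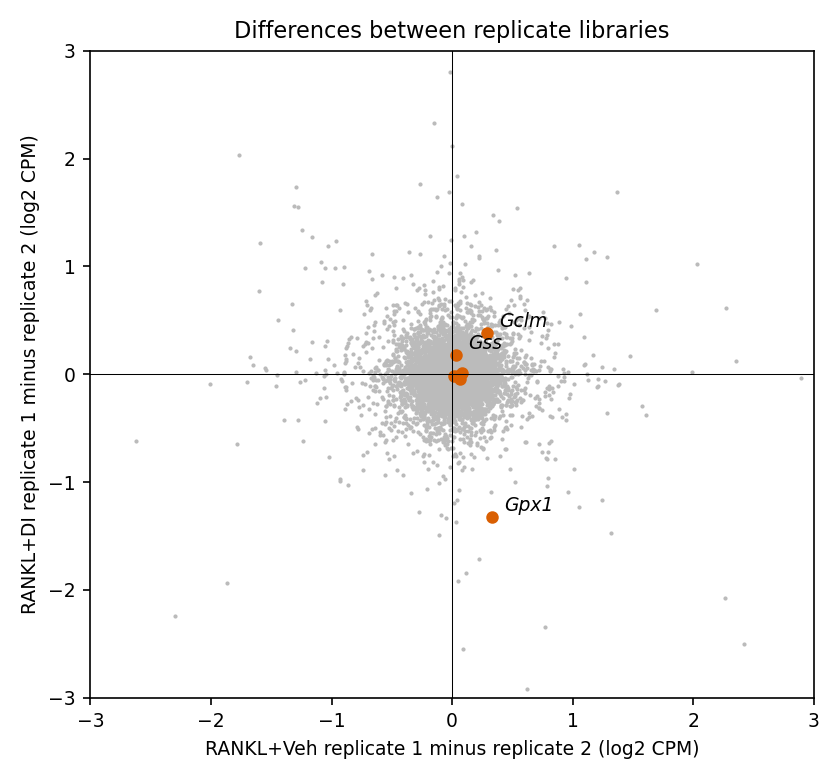
Each grey point is 1 of 11008 genes whose average log2 CPM exceeds 1, placed by the gap between the vehicle libraries (x axis) and between the DI libraries (y axis), both as replicate 1 minus replicate 2 in log2 CPM. The 7 members above this level are orange, and 8 genes lie outside the axes. Gpx1 stands at -1.32 on the y axis while the other 6 members lie between -0.040 and 0.38.

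Only 35 of these 11008 genes differed more between the DI libraries than Gpx1, which ranked 36 by the size of that difference. Its vehicle libraries differed by 0.33 and ranked 1022. The median absolute difference was 0.084 between the DI libraries and 0.088 between the vehicle libraries. Gclm was the next of the members, with 0.38 between the DI libraries and 0.29 between the vehicle libraries. The remaining 5 genes in the plot of replicate differences had DI libraries within 0.18 of each other. No overlapping gene and no copy of at least 200 bases at 90% identity was found for Gpx1 among the GENCODE M21 transcripts.

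Gpx4 (ENSMUSG00000075706, chromosome 10 from 80047166 to 80056439), which reduces lipid hydroperoxides within membranes, was at 64.2 and 60.6 CPM with vehicle and at 83.7 and 82.9 CPM with DI. The log2 fold change was 0.42 (standard error 0.059), and the groups were apart by a factor of at least 1.29. The fitted change was about the same as that of Gpx1, but its DI libraries differed by 0.014 on the log2 scale where those of Gpx1 differed by 1.32. A pseudogene, Gpx4-ps2, carries 79.5% of a Gpx4 transcript at 99.7% identity, so that reads from this part may have been lost or shared in counting. Its part in the level and in the difference of Gpx4 was not tested.

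**Figure D3:**
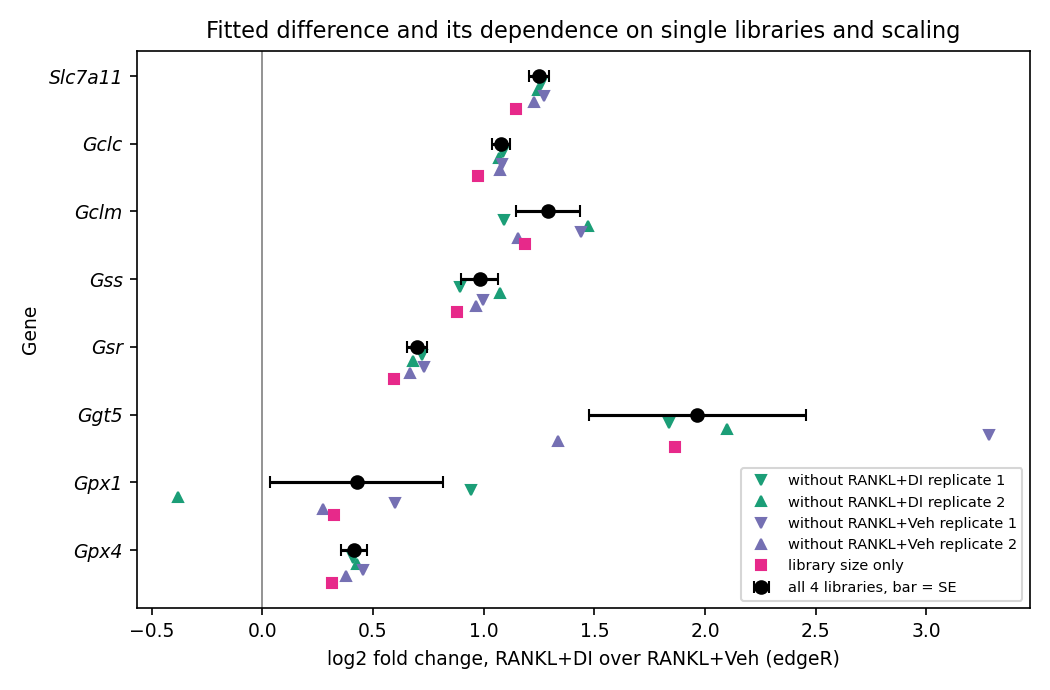
Black points are log2 fold changes of RANKL+DI over RANKL+Veh with standard errors from the 4 libraries (edgeR). Triangles give the value with 1 library left out and squares the value when scaled by library size only. The values for Slc7a11, Gclc, Gsr and Gpx4 stay close together, Ggt5 runs from 1.33 to 3.28 and Gpx1 from -0.38 to 0.94.

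Levels of the 8 genes were compared with each other only per length of gene. The lengths behind the deposited FPKM were recovered from counts and totals and did not equal the merged exon lengths of GENCODE M21 for any of the 8 genes. For Gpx1 the implied length was 3412 bases, where its whole locus spans 1441 bases, and for Gpx4 it was 2805 bases against 1724 bases of merged exons. For this reason CPM per kilobase of merged M21 exons is given first. On that scale Gpx1 had the highest level with vehicle, at 164 ± 26.4 (SD, n = 2 here and below). Gsr followed at 52.5 ± 1.62, then Gpx4 at 36.2 ± 1.44, Gclm at 31.1 ± 4.36 and Gclc at 24.1 ± 0.149. Slc7a11 at 5.003 ± 0.123 and Gss at 4.27 ± 0.0686 were far lower, and Ggt5 stood at 0.125 ± 0.105. No neighbours in this order had overlapping libraries, but the gap between Gpx4 and Gclm was close to the SD of Gclm.

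With DI the order on this scale was Gpx1 at 221 ± 134, Gsr at 85.2 ± 1.67, Gclm at 76.1 ± 14.1, Gclc at 50.8 ± 0.488, Gpx4 at 48.3 ± 0.325, Slc7a11 at 11.9 ± 0.0849, Gss at 8.44 ± 0.740 and Ggt5 at 0.505 ± 0.0648. Gsr and Gclm had overlapping libraries, so their order is not resolved. Gpx4 ranked 3 of the 8 genes with vehicle and 5 with DI. On the deposited FPKM, Gpx4 ranked 5 in both groups, at 23.0 ± 0.933 with vehicle and 28.6 ± 0.0990 with DI. With vehicle its libraries overlapped those of Gclm, at rank 4, so the order of these 2 genes is not resolved there. The shift of Gpx4 from rank 3 to rank 5 thus depends on the length used.

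**Figure D4:**
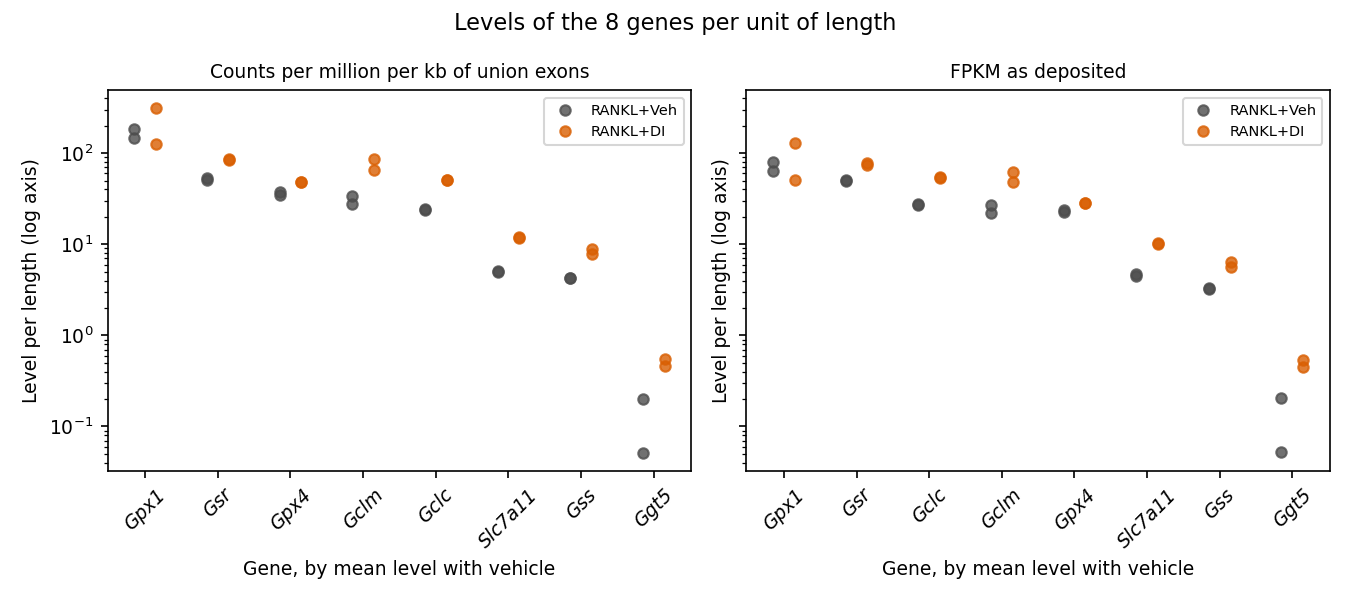
The 8 genes are ordered by their mean level with vehicle, and each point is the level of 1 library per unit of gene length on a log axis. The left panel uses merged M21 exons and the right panel the deposited FPKM. By group mean Gpx1 is highest and Ggt5 lowest in both panels, although in FPKM the Gpx1 point of DI replicate 1, at 51.2, lies below both DI points of Gsr, at 74.8 and 77.2. The vehicle mean of Gpx4 moves from rank 3 on the left to rank 5 on the right, where its vehicle libraries overlap those of Gclm.

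Gclc and Gclm encode the parts of 1 enzyme, and their levels were set against each other within each library. In deposited FPKM the ratio of Gclc to Gclm was 1.03 and 1.24 with vehicle and 0.849 and 1.12 with DI. Per kilobase of merged exons it was 0.708 and 0.856 with vehicle and 0.586 and 0.774 with DI. The groups overlapped on both scales. Replicate 1 had the lower ratio in both groups, since Gclm was higher there while Gclc was even. Whether Gclc or Gclm was the more abundant message depends on the length used.

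The nearest patterns were sought among the 11008 genes shown in the plot of replicate differences, by the root-mean-square difference of centred log2 CPM over the 4 libraries. With 2 groups of 2 this mostly finds genes with a like difference between the groups. Nearest to Slc7a11 were Serpinb9 (0.026), Prdx1 (0.032) and Cbr3 (0.033). Nearest to Gclc were Cat (0.018), Panx1 (0.022) and Cd36 (0.023), and nearest to Gss were Prkar2b (0.018), Rps6ka3 (0.031) and Mturn (0.038). For Gclm they were 1810026B05Rik (0.033), Acss2 (0.094) and Procr (0.13). Gsr had Homer3 (0.016) and Pgap1 (0.017), and Gpx4 had Esyt1 (0.0046), Vat1 (0.0088) and 1110007C09Rik (0.0090). The distances were larger for Gpx1, the nearest being 9330159M07Rik (0.198), A230020J21Rik (0.200) and Fcho2 (0.207), and for Ggt5, the nearest being Sap18 (0.458), Gm6209 (0.466) and Gm38253 (0.483).

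Other genes of the route were taken from 8 lists with 87 genes, of which 67 had enough counts to be tested. Of the 67 genes 12 passed an adjusted p of 0.05 in edgeR's quasi-likelihood test, 10 higher and 2 lower with DI. This is 17.9%, beside 14.8% of all tested genes, and the median log2 fold change of the 67 genes was 0.06.

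Among the 6 tested genes for the supply of cystine and cysteine, 1 was higher and 1 lower. Slc3a2, the heavy chain that pairs with Slc7a11 at the membrane, was at 209 and 199 CPM in the vehicle libraries and 257 and 275 CPM in the DI libraries. It rose by 0.38 on the log2 scale (standard error 0.050, adjusted p = 0.00661, edgeR), where Slc7a11 differed by 1.25. Slc1a5, a glutamine transporter, fell by 0.55 on the log2 scale (standard error 0.054, adjusted p = 0.00295, edgeR), from 92.7 to 63.4 CPM. Mpst, a sulfurtransferase that acts on a product of cysteine, was at 17.5 CPM with vehicle and 20.6 CPM with DI and did not pass. Cbs, which opens the route from methionine to cysteine, had 0 counts in all 4 libraries, and Cth, which ends it, had 12 and 3 counts with vehicle and 5 and 1 with DI.

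Of 9 tested genes for the turnover of glutathione, 2 were higher. Cndp2, a cytosolic dipeptidase that splits cysteinylglycine, rose from 444 to 559 CPM (log2 fold change 0.33, standard error 0.039, adjusted p = 0.00458, edgeR). Anpep, a surface aminopeptidase, rose from 938 to 1058 CPM (0.17, standard error 0.034, adjusted p = 0.0226, edgeR), a call that was lost with library size only, on both FPKM scales (each at 0.07) and without DI replicate 1 (0.15), vehicle replicate 1 (0.18) or vehicle replicate 2 (0.17). The other gamma-glutamyltransferases were at or near the floor, with at most 10 counts in a library for Ggt1, 4 for Ggt7 and 0 for Ggt6. Chac1 and Chac2, which degrade glutathione within the cell, had log2 fold changes of -0.14 and -0.02 and did not pass.

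Of 10 tested transporters of glutathione and its conjugates, 3 were higher and none lower. Abcc1, an exporter of glutathione conjugates and oxidised glutathione, rose from 555 to 928 CPM (log2 fold change 0.74, standard error 0.035, adjusted p = 3.77e-04, edgeR). Abcc4 rose from 43.9 to 69.7 CPM (0.67, standard error 0.085) and Abcc3 from 100.4 to 150.2 CPM (0.58, standard error 0.051), both exporters of the same family. The remaining 7 transporters did not pass, among them the mitochondrial carrier Slc25a39, at 88.0 CPM with vehicle and 99.3 CPM with DI, and Slc25a11, at 109 and 105 CPM.

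Of 9 glutaredoxins and other enzymes that use glutathione, Esd alone passed. It encodes S-formylglutathione hydrolase and rose from 556 to 820 CPM (log2 fold change 0.56, standard error 0.041, adjusted p = 0.00118, edgeR), although pseudogene transcripts match it over its whole length at 96.0% identity. Glrx, the cytosolic glutaredoxin, was at 124 CPM with vehicle and 121 CPM with DI. Of the other 6 glutathione peroxidase genes only Gpx3 could be tested, at 66 and 48 counts in the vehicle libraries and 70 and 74 in the DI libraries, and it did not pass. Gpx2, Gpx5 and Gpx6 had 0 counts.

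Gpx1 and Gpx4 carry selenocysteine, so the genes that make selenoproteins were listed too. None of the 9 tested genes of that machinery passed in edgeR or in DESeq2, with 2 of them at an unadjusted p under 0.05 in edgeR. The median log2 fold change of this list was -0.10. Sephs2, which makes the selenium donor, was at 110 CPM with vehicle and 111 CPM with DI, and Scly, which frees selenium from selenocysteine, at 34.6 and 35.6 CPM. Of 16 tested genes for other selenoproteins 3 were higher. Txnrd1, cytosolic thioredoxin reductase, rose from 704 to 1170 CPM (log2 fold change 0.73, standard error 0.040, adjusted p = 5.60e-04, edgeR). Msrb1, a methionine sulfoxide reductase, rose from 110 to 166 CPM (0.59, standard error 0.054) and Selenop, the secreted selenium carrier, from 206 to 246 CPM (0.26, standard error 0.044). Selenop no longer passed with library size only, on both FPKM scales or without vehicle replicate 2 (log2 fold changes of 0.15 to 0.23), which left 2 genes of this list. An antisense gene covers 36.4% of the exons of Sephs2 and another 15.4% of those of Selenop, each with 25 counts or fewer per library.

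Among 7 tested genes of lipid peroxidation and ferroptosis, the form of cell death that Gpx4 restrains, 1 passed. Tfrc, the transferrin receptor, fell by 0.42 on the log2 scale (standard error 0.055, adjusted p = 0.00659, edgeR), from 209 to 156 CPM. Acsl4, which loads membranes with polyunsaturated fatty acids, was at 169 CPM with vehicle and 167 CPM with DI, and Aifm2, a suppressor of ferroptosis apart from glutathione, at 28.8 and 29.6 CPM.

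**Figure D5:**
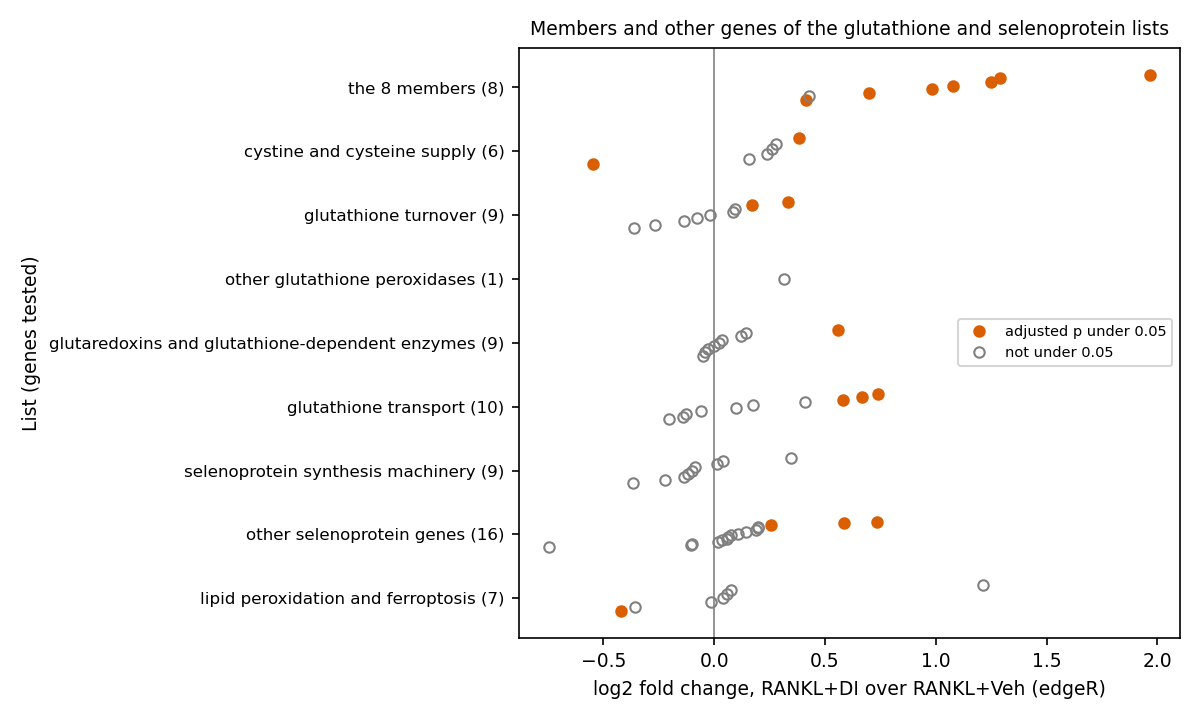
Each point is the log2 fold change (RANKL+DI over RANKL+Veh, edgeR) of 1 tested gene, by list, with the number of tested genes in brackets. Filled points passed an adjusted p of 0.05. The 8 members, which were chosen on this same comparison, lie to the right of 0, Gpx1 at 0.43 with a standard error of 0.39. Most of the 67 genes of the other lists lie near 0. Of those that passed, Abcc1 and Txnrd1 lie farthest right, at 0.74 and 0.73, while Ncoa4 at 1.21 and Selenoh at -0.74 lie farthest out on either side and did not pass.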

How the data were processed

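RNA was measured in 4 libraries, grouped by their labels as RANKL+DI or RANKL+Veh with 2 each. The authors deposited read counts for every gene, unnormalised, and FPKM values that follow from those counts, the library totals and 1 length per gene (largest relative deviation 4.42e-04). The labels name the builds GRCm38 and mm10, while the aligner, the counter and the annotation are not given in the sources used here. The lengths implied by the deposited FPKM exceeded the genomic span of the gene for 1047 of 18186 genes. They had a median of 1.14 times the merged exons of GENCODE M21. This affects comparisons between genes, and those between libraries only where a constant is added to FPKM before the log. The difference of Ggt5 was 0.40 on log2(FPKM + 1) and 2.09 on log2(FPKM + 0.01). A further deposited table repeats these values with gene annotations and was not used.

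The counts were analysed as deposited in R 4.3.3 with edgeR 4.0.16. Genes with few counts were removed by filterByExpr at its defaults, libraries were scaled by TMM, treatment was the single term of the quasi-likelihood model, with Benjamini-Hochberg correction across 12590 genes. The standard error is the log2 fold change divided by the root of the F statistic. The depth of 16085692 to 19403480 counts sets the floor, which like all precision from counts covers counting error only. Replicates differed by more than sampling noise (chi-square divided by its degrees of freedom, 7.57 between the DI libraries, 7.74 between the vehicle libraries) and were kept as separate libraries. The fit was tested on simulated data. limma 3.58.1 was used on log2(FPKM + 1) and log2(FPKM + 0.01), and DESeq2 1.42.0 as a further test. Other alternatives were DESeq2's size factors, library size only, no filter, at least 10 counts in every library, the replicate number as a block and each library left out. Levels per length of M21 exons were added after the data were seen.

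The members and the gene lists were chosen with earlier results of these data known. Of 147 list names, 12 were matched through gene identifiers because the deposited name was older, changed or not unique. From each list the text names up to 4 called genes with the largest change and the 2 tested genes with the highest mean FPKM, together with Slc3a2, and the 3 nearest patterns of each member, except for items that are not reported here. Other genes of the lists that are named (Slc25a39, Cbs, Cth, Ggt1, Ggt6, Ggt7, Chac1, Chac2, Gpx2, Gpx5, Gpx6 and Aifm2) were picked after their values were seen, for their roles.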

Additional observations from a re-analysis of the deposited data

How the results depend on the processing

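Of the 8 members, Slc7a11, Gclc, Gclm, Gss, Gsr and Gpx4 kept their direction and their adjusted p under 0.05 in all 12 alternatives. Ggt5 lost it with the replicate number as a block (log2 fold change 2.04), with log2(FPKM + 0.01) (2.09) and without DI replicate 1 (1.84), DI replicate 2 (2.10) or vehicle replicate 2 (1.33), and a minimum of 10 counts removed it. Its adjusted p was 0.0491 with all 4 libraries and 0.0573 to 0.109 in those alternatives. Gpx1 reversed to -0.38 without DI replicate 2 and passed without DI replicate 1 (0.94). The count of members under the threshold was 6 to 7 with each library left out and 6 with the replicate block, where the residual degrees of freedom fall from 2 to 1. The replicate numbers were not taken as pairs, since the labels do not tie them and the deviations of same-numbered libraries correlated at -0.073 over genes; the block gave 1389 genes over the whole table in place of 1868, and leaving out a library gave 1087 to 1394. With a library left out, the lone library of its group is assumed to vary like the others.

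Among the lists, turnover fell from 2 genes to 1 with library size only and on both FPKM scales, and was 1 to 2 with each library left out (1 without DI replicate 1 or either vehicle library). The selenoprotein machinery went from 0 to 1 with library size only and on both FPKM scales, and was 0 to 1 with each library left out. Lipid peroxidation held 1 to 2 with each library left out. The higher count of both came without DI replicate 1. Log2 fold changes turned from 0.011 to -0.0925, -0.0906 and -0.0924 for Sephs2, and from 0.041 to -0.0629, -0.0537 and -0.063 for Scly, with library size only, log2(FPKM + 1) and log2(FPKM + 0.01). With each library left out they ran from -0.0068 to 0.0332 for Sephs2, from -0.0278 to 0.1117 for Scly and from -0.0497 to 0.0237 for Acsl4, and that of Gpx1 from -0.38 to 0.94. Sephs2, Scly and Acsl4 did not pass in those alternatives. The calls of Anpep and Selenop were lost with library size only and on both FPKM scales, at 0.07 and at 0.15. Anpep also lost its call without DI replicate 1 (0.15), vehicle replicate 1 (0.18) or vehicle replicate 2 (0.17), and Selenop without vehicle replicate 2 (0.23). The deposited FPKM values, like library size only, carry no TMM scaling, so these alternatives share that choice. With library size only the median of all genes stood at -0.10, and it was -0.07 on log2(FPKM + 1) and -0.10 on log2(FPKM + 0.01). The cause of these changes was not tested. The ratio of Gclc to Gclm moved from 0.985 (DI) and 1.13 (vehicle) in FPKM to 0.680 and 0.782 per kilobase of merged exons and to 0.665 and 0.764 per kilobase of the longest transcript. Ggt5 rests on 5 to 56 counts per library.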

Other observations

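Ncoa4, a ferritin receptor in the list of lipid peroxidation genes, was singled out after its values were seen. Its count was 1029 in DI replicate 2, against 248 in DI replicate 1 and 284 and 246 with vehicle, and its log2 fold change of 1.21 (standard error 0.56) did not pass. Its transcript shares a stretch at 99.6% identity with the copy Gm6768, over 46.7% of the transcript, and counts of that gene were 1563 and 1660 in the DI libraries and 1832 and 1594 in the vehicle libraries. DI replicate 2 was thus the higher library for both Gpx1 and Ncoa4.

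Acss2, an acetyl-CoA synthetase gene on the strand opposite to Gss, was among the 3 nearest patterns of Gclm, at a log2 fold change of 1.45. Selenoh, a small nuclear selenoprotein, was also singled out after its values were seen. Its counts were 123 and 208 in the DI libraries and 364 and 184 in the vehicle libraries. The log2 fold change was -0.74 (standard error 0.32) and did not pass.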
